A study of Mus musculus with 24 samples.

Results

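The interferon-stimulated genes described here are Usp18, Isg15, Ifit1, Ifit2, Ifit3, Irf7, Oasl2, Rsad2 and Mx1. They were taken as the probe sets that the array annotation gives to these 9 symbols, 11 probe sets of 45101, and all 9 were among the 13486 genes tested. The 24 arrays came from 2 kinds of mouse tissue. Tumours A to E were separate mammary adenocarcinomas of C57BL6/J mice of genotype Apc+/1572T, which carry 1 truncated allele of Apc, a negative regulator of the Wnt pathway. Normal tissue was 3 pools of mammary glands, F to H, each isolated on its own from C57BL6/J mice of genotype Apc+/+. From every tumour and pool 10000 cells were sorted as Lin-CD29hiCD24+, Lin-CD29+CD24+ and Lin-, so that each population had 5 tumour and 3 normal arrays. Tumour and normal arrays therefore differ in genotype as well as in tissue, and a pool averages several glands where a tumour is 1 lesion. The stated questions were how tumour CD29hiCD24+ cells, the gate used for stem cells, differ from their normal counterparts and how that gate differs from the other cells of the same tissue.

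Type I and type III interferons are secreted after nucleic acid sensing and bind receptors whose kinases activate STAT and IRF factors, and these factors switch on a shared set of target genes. Irf7 encodes a transcription factor that amplifies interferon production. Oasl2, Rsad2 and the Ifit genes encode antiviral effectors, Isg15 encodes a ubiquitin-like modifier and Usp18 encodes the protease that removes ISG15 and also dampens signalling at the type I receptor. Ifit1, Ifit2 and Ifit3 lie side by side on chromosome 19, so they share a neighbourhood and are not independent loci. In build GRCm38.p6 Ifit2 spans chr19:34550550-34576534, Ifit3 chr19:34583119-34588982 and Ifit1 chr19:34640889-34650009. Usp18 spans chr6:121245906-121270917, Irf7 chr7:141263183-141266499, Oasl2 chr5:114896926-114912245, Rsad2 chr12:26442743-26456452, Isg15 chr4:156199424-156200818 and Mx1 chr16:97447035-97462906. Mx1 is annotated as a transcribed pseudogene in the C57BL/6J reference.

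Interferon factors bind elements built from repeats of GAAANNGAAA, read on either strand as that motif or as TTTCNNTTTC. The motif was searched in the 250 bases before the RefSeq start of each gene (build GRCm38.p6), where 978 of 32851 windows held it (2.98%) and 59 held it 2 or more times (0.18%). A window was at hand for 7 of the 9 genes, and 4 of them held the motif. These stretches are shown as the matches found in the set. They are written 5′ to 3′ on the gene's strand with the matched bases in capitals. Isg15 had 3 overlapping matches at chr4:156200863-156200908, Ifit1 had 2 at chr19:34640773-34640825, Ifit3 had 2 at chr19:34583361-34583428 and Rsad2 had 1 at chr12:26456551-26456584. The Ifit3 stretch runs from base -168 to base -101 before the start used in the promoter table, which lies inside the gene span given above, so it belongs to a start other than the outermost one.
Isg15: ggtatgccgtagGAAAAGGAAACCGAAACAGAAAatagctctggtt
Ifit1: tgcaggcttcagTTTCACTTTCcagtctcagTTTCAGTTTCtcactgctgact
Ifit3: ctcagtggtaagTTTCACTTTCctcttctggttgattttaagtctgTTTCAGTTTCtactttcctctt
Rsad2: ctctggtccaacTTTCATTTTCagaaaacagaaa
The windows of Ifit2, Irf7 and Oasl2 did not hold these letters, which says nothing of the factors that act there.

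Values are log2 signals per probe set, so 1 unit is a 2-fold difference, and they are compared only within a probe set. Values of 2.83 or less, the lowest 40% of all values in the study, are called the low band, where differences are compressed. Usp18, Irf7, Oasl2, Ifit2 and the Isg15 probe set lay above that band in 24 of 24 arrays, Mx1 in 21 and Ifit1 in 20. Ifit2 nonetheless came close to it, with a lowest value of 2.88. Ifit3 did so in 6 arrays only and was tested because of those 6. The only Isg15 probe set also carries the name Gm9706, so its signal cannot be split between both genes and is written Isg15/Gm9706. Rsad2 had 3 probe sets. The brightest, which lay above the low band in 24 arrays, stands for the gene.

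The gates were checked against their markers. In normal glands the mean of 8 basal markers ran from 13.07 to 13.32 in CD29hiCD24+ arrays, against 3.53 to 3.91 in CD29+CD24+ arrays. In tumours the same mean ran from 10.54 to 11.91 in CD29hiCD24+ arrays, against 10.09 to 10.51 in CD29+CD24+ arrays, so the tumour gates lay far closer together. Itgb1, the gene of CD29, averaged 10.76 in tumour CD29hiCD24+ and 10.16 in tumour CD29+CD24+ arrays. In normal arrays the same means were 10.36 in CD29hiCD24+ and 9.46 in CD29+CD24+. Of 19 leukocyte genes 13 were measured, and their mean was 7.56 in the normal CD29hiCD24+ array of pool F, against 3.52 and 3.53 in pools G and H. Ptprc, the CD45 gene, reached 8.69 in that array although leukocytes are among the cells that a lineage depletion removes, and results that rest on the array are given with and without it below. Lin- arrays also held leukocyte signal. Ptprc reached 8.34 in a tumour and 8.09 in a normal Lin- array, and the leukocyte mean ran from 3.18 to 6.56 in tumour Lin- and from 3.72 to 5.96 in normal Lin- arrays, with tumour B and pool F the highest. With the leukocyte mean as a covariate, the Lin- differences between tumours and pools described below passed as before, at 1.63 for Irf7 (adjusted p = 0.0125, with 0.00521 to 0.443 over all its alternatives) and -2.38 for Usp18 (adjusted p = 0.0336, with at most 0.0956 over all its alternatives).

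Tumour CD29hiCD24+ cells had the highest group mean of the 6 groups for 5 of the 8 genes other than Ifit3, namely Isg15/Gm9706, Ifit1, Irf7, Oasl2 and Mx1. Of these only Oasl2 passed against normal CD29hiCD24+ cells, as given below. The share of all genes with their highest mean in tumour CD29hiCD24+ cells was not counted, so this count has no baseline and is not read as a trait of the set. Ifit3 is not ranked, since its mean there was carried by tumour A and 3 of the other 4 arrays lay in the low band. Usp18 was highest in normal CD29+CD24+ cells, Ifit2 in normal CD29hiCD24+ cells and Rsad2 in normal Lin- cells. For Rsad2 that mean was 8.33, against 8.09 in tumour CD29hiCD24+ cells. Another Rsad2 probe set, above the low band in 23 arrays, was highest in normal CD29hiCD24+ cells instead (5.32, against 4.69 in normal Lin- cells). Each array reads RNA of sorted cells in bulk, so more cells that carry a transcript and more transcript per cell cannot be told apart.

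**Figure D1:**
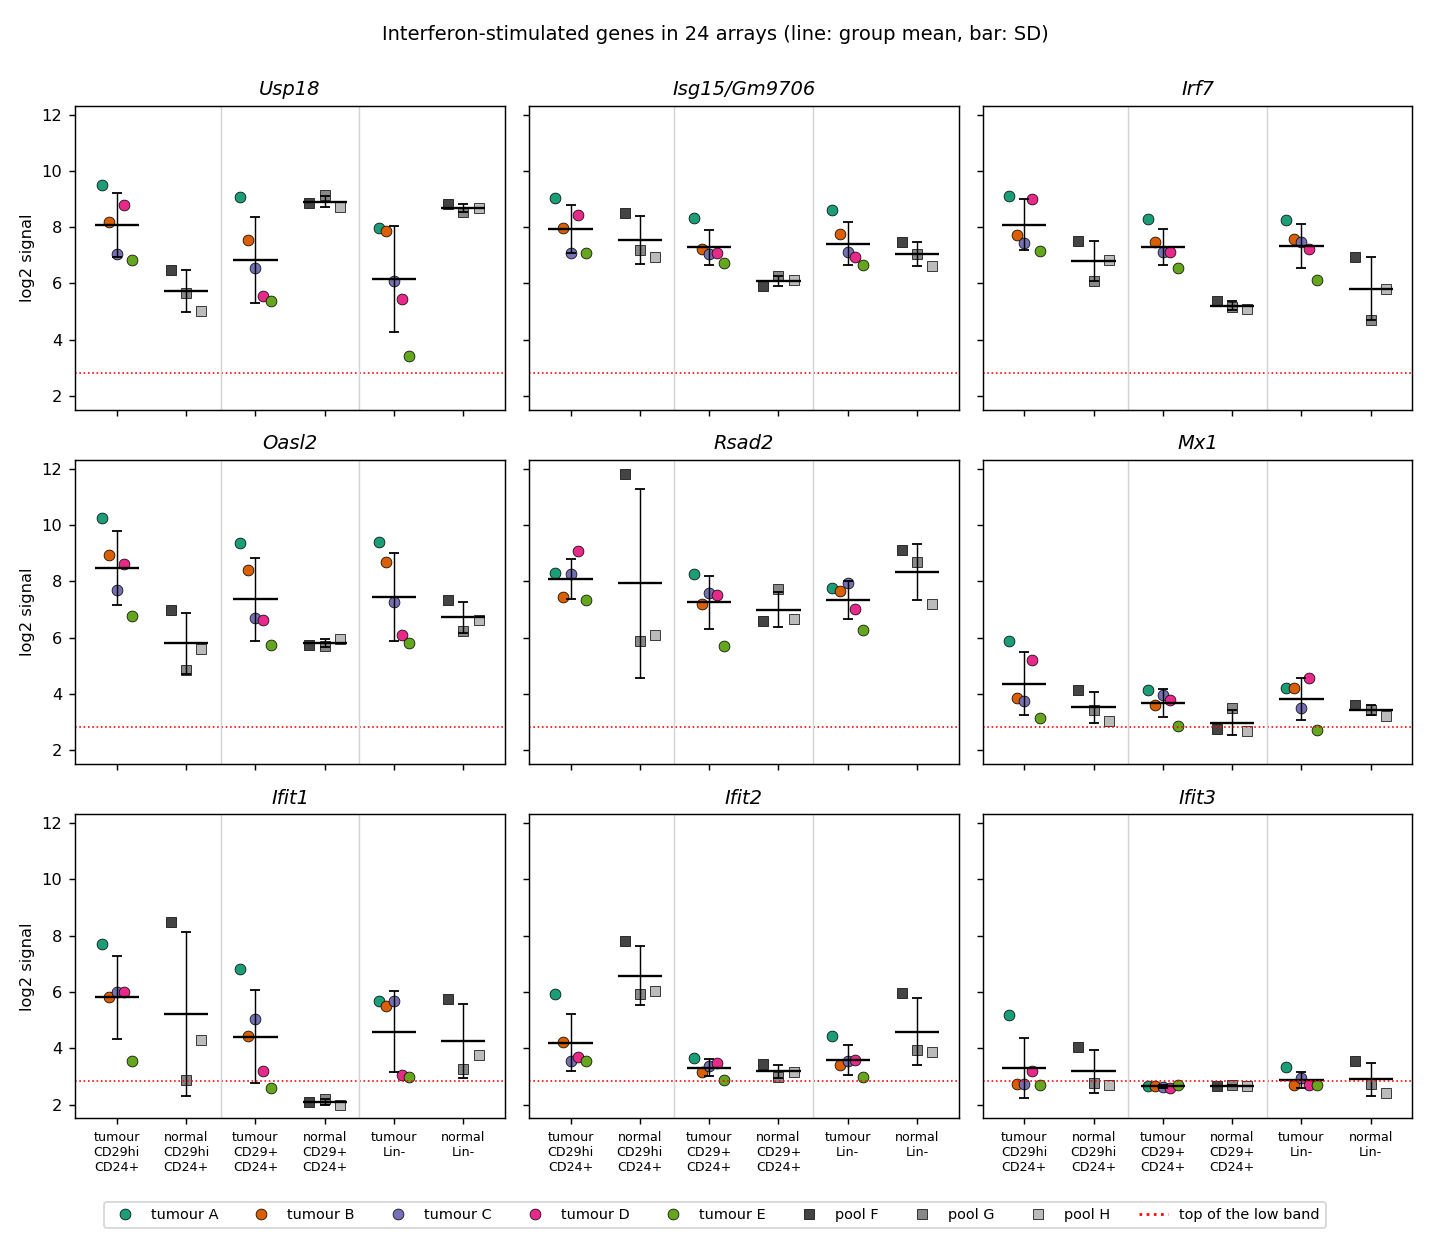
Log2 signal (vertical axis) of the 9 genes in all 24 arrays, 1 point per array, with tumour groups left of normal groups for each population. Lines are group means, bars are SD, and the dotted line marks the top of the low band at 2.83. Usp18 is high and tight in normal CD29+CD24+ and Lin- arrays, between 8.53 and 9.13, and spread from 3.42 to 9.51 over the tumour arrays.

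Usp18 showed the clearest dependence on both tissue and gate. In CD29hiCD24+ cells it was 9.51, 8.18, 7.05, 8.80 and 6.82 in tumours A to E, against 6.48, 5.67 and 5.0 in pools F to H. Every tumour lay above every pool there. In CD29+CD24+ cells it was 9.07, 7.54, 6.56, 5.56 and 5.39 in tumours A to E, against 8.87, 9.13 and 8.72 in pools F to H. In Lin- cells it was 7.96, 7.86, 6.09, 5.45 and 3.42 in the tumours, against 8.82, 8.53 and 8.67 in the pools. Every tumour lay below every pool in Lin- cells, and in CD29+CD24+ cells 4 of 5 did, tumour A being the exception. Among normal arrays the mean of 10 measured luminal mammary genes was also higher in CD29+CD24+ and Lin- cells, where Usp18 was high. Against the tumours this luminal mean was higher in the pools of every population. That includes CD29hiCD24+ cells, where Usp18 was lower in the pools. It ran from 6.78 to 8.23 in tumour against 8.91 to 10.51 in normal CD29hiCD24+ arrays, from 7.49 to 10.93 in tumour against 12.11 to 12.22 in normal CD29+CD24+ arrays, and from 6.72 to 9.79 in tumour against 11.73 to 12.22 in normal Lin- arrays. Its part in the Usp18 results was not tested.

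Against normal cells of the same gate, Usp18 was therefore 5.10-fold higher in tumour CD29hiCD24+ cells (log2 difference 2.35 ± 0.89 SE, adjusted p = 0.0414) and 5.72-fold lower in tumour Lin- cells (-2.52 ± 0.89, adjusted p = 0.028). In CD29+CD24+ cells the difference was -2.08 ± 0.89 and did not pass the threshold (adjusted p = 0.0648). Without tumour A it did, at -2.64 (adjusted p = 0.00842). The difference between gates was tested as well. The tumour-minus-normal difference of Usp18 was larger in CD29hiCD24+ than in CD29+CD24+ cells by 4.43 ± 1.26 (95% interval 1.82 to 7.05, adjusted p = 0.00741) and larger than in Lin- cells by 4.87 ± 1.26 (95% interval 2.25 to 7.49, adjusted p = 0.005). Both passed in all 17 alternative settings, with adjusted p no higher than 0.0442 and 0.0372. Of all genes, 42% passed the first of these tests (22.2% higher, 19.8% lower) and 35.7% the second (19.9% higher, 15.8% lower).

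The single-gate Usp18 differences were less firm. In CD29hiCD24+ cells the difference ran from 1.99 to 2.73 when 1 tumour or pool was left out and did not pass without tumour B or D or pool F, G or H (adjusted p up to 0.182). It passed in 11 of 18 alternatives. In Lin- cells the difference ran from -2.97 to -1.83 and did not pass without tumour C, D or E or pool F, G or H (adjusted p up to 0.0956). There too it passed in 11 of 18 alternatives. Numbers in the sample descriptions fall into 3 ranges, 19 to 24 for tumours A and B, 56 to 64 for C and D, and 82 to 95 for tumour E and the pools, and what they stand for is not given in the sources used here. With the range as a block, only tumour E shares a range with the pools. It alone then sets the level of the tumours averaged over gates, while the pattern over gates and the spread come from all arrays. Usp18 differed in that fit by 0.54 in CD29hiCD24+, -3.89 in CD29+CD24+ and -4.32 in Lin- cells. Since 1 tumour sets the level, p-values are not given beside the tumour-minus-normal differences of this fit, here or below.

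Irf7, the amplifying factor, was 9.09, 7.72, 7.42, 8.99 and 7.16 in tumour CD29hiCD24+ arrays of A to E, against 7.51, 6.07 and 6.82 in pools F to H. In CD29+CD24+ cells it was 8.27, 7.46, 7.12, 7.10 and 6.54 in the tumours, against 5.38, 5.14 and 5.07 in the pools. The tumours lay above the pools without overlap in CD29+CD24+ cells, and Irf7 was higher there by 2.10 ± 0.54 (4.29-fold, adjusted p = 0.00338). Basal genes averaged 10.09 to 10.51 in tumour against 3.53 to 3.91 in normal CD29+CD24+ arrays (5 of 8 passed as higher), and fibroblast genes 5.17 to 6.59 against 3.17 to 3.61 (5 of 10 passed as higher), and their part in the Irf7 result was not tested. In Lin- cells, with 8.25, 7.59, 7.48, 7.24 and 6.11 in the tumours against 6.94, 4.71 and 5.80 in the pools, it was higher by 1.52 ± 0.54 (adjusted p = 0.0304), and only tumour E reached into the range of the pools. The CD29hiCD24+ difference of 1.28 ± 0.54 did not pass (adjusted p = 0.0701). It passed at 1.51 without tumour E (adjusted p = 0.0284) and at 1.63 without pool F (adjusted p = 0.0426). The Lin- call was lost without tumour A, B or C or pool G or H (adjusted p up to 0.217), and the difference ran from 0.96 to 2.08 over the omissions of 1 tumour or pool. With the description-number range as a block, where 1 tumour sets the level, the difference was 1.14 in CD29+CD24+ and 0.55 in Lin- cells.

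Oasl2, an oligoadenylate synthetase-like effector, was 10.27, 8.93, 7.71, 8.64 and 6.78 in tumour CD29hiCD24+ arrays of A to E, against 6.97, 4.84 and 5.60 in pools F to H. Only tumour E reached into the range of the pools. Oasl2 was higher by 2.66 ± 0.87 in these cells (6.32-fold, adjusted p = 0.0193). The differences of 1.57 ± 0.87 in CD29+CD24+ (adjusted p = 0.162) and 0.73 ± 0.87 in Lin- cells (adjusted p = 0.537) did not pass. The call in CD29hiCD24+ cells was lost without pool G (2.18, adjusted p = 0.122) or pool H (2.56, adjusted p = 0.0813). With the description-number range as a block, where 1 tumour sets the level, the difference was 1.0.

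Ifit2, whose product binds viral RNA, went the other way. It was 5.94, 4.24, 3.55, 3.71 and 3.56 in tumour CD29hiCD24+ arrays of A to E, against 7.81, 5.93 and 6.02 in pools F to H. Tumour A lay just above pool G, and the other 4 tumours lay below every pool. Ifit2 was 5.23-fold lower in tumour CD29hiCD24+ cells (-2.39 ± 0.54, adjusted p = 0.00129) and passed in all 18 alternatives, with adjusted p no higher than 0.0236. The mean of 10 measured endothelial genes ran from 3.31 to 4.42 in tumour CD29hiCD24+ arrays, against 7.25 to 9.94 in normal CD29hiCD24+ arrays, and its part in this result and the others of the comparison was not tested. The neighbours of Ifit2 did not pass in the same comparison. Ifit1 differed by 0.60 ± 1.13 (adjusted p = 0.717), with 3.56 to 7.70 in the tumours against 2.87 to 8.49 in the pools. Ifit3 differed by 0.13 ± 0.42 (adjusted p = 0.838).

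Counted together, 2 of the 9 genes were higher (Oasl2, Usp18), 1 was lower (Ifit2) and 6 did not pass in tumour against normal CD29hiCD24+ cells, where 38.6% of all genes passed, 15.6% higher and 22.9% lower. The median difference of the 9 was 0.60, against -0.01 over all genes. In CD29+CD24+ cells 1 was higher (Irf7) and 8 did not pass, with 43.5% of all genes called (16.4% higher, 27.1% lower) and a median of 0.69 for the 9 genes against -0.01. In Lin- cells 1 was higher (Irf7), 1 lower (Usp18) and 7 did not pass, with 40.6% of all genes called (13.9% higher, 26.6% lower) and a median of 0.33 against -0.08. Tumours and pools did not overlap for Usp18 in CD29hiCD24+ cells, a pattern of 15.7% of all genes in that direction, and for Usp18 in Lin- cells, a pattern of 25% of all genes. In none of the 3 populations was the share of the 9 genes that passed above the share of all genes. Ifit1 lay above the pools without overlap in CD29+CD24+ cells, at 2.58 to 6.83 in the tumours against 2.0 to 2.21 in the pools, yet its difference of 2.31 ± 1.13 did not pass (adjusted p = 0.108). The 3 pools and tumour E lay in the low band, so the size of that gap is not well measured. Isg15/Gm9706 also lay higher in every tumour than in every pool there, at 6.72 to 8.31 in the tumours against 5.91 to 6.25 in the pools, with a difference of 1.19 ± 0.49 (adjusted p = 0.0545). Such a gap without overlap was seen for 18.2% of all genes. Without tumour E both passed, Ifit1 at 2.77 (adjusted p = 0.0485) and Isg15/Gm9706 at 1.33 (adjusted p = 0.0359).

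**Figure D2:**
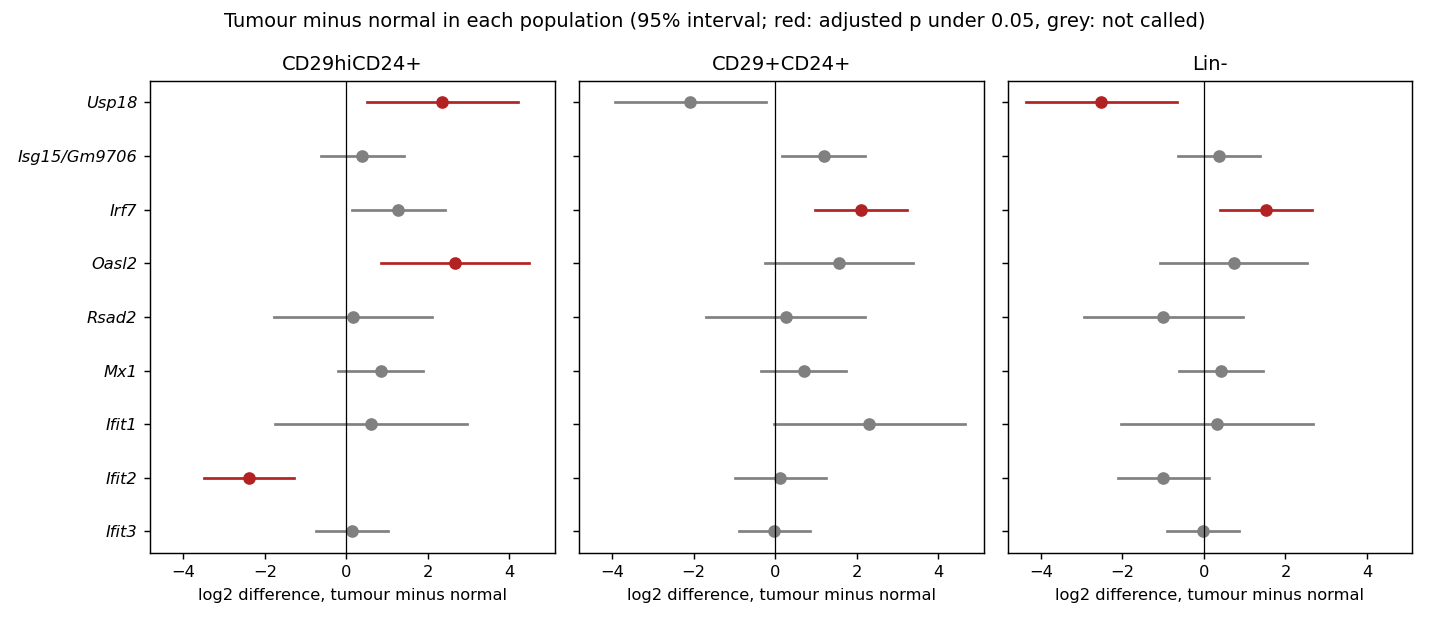
Log2 difference, tumour minus normal (horizontal axis), of the 9 genes in each population, with 95% intervals over 5 tumour and 3 normal arrays. Red marks adjusted p under 0.05. Usp18 changes sides, at 2.35 in CD29hiCD24+ and -2.52 in Lin- cells, and Ifit2 is lower at -2.39 in CD29hiCD24+ cells.

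Rsad2, the gene of the antiviral enzyme viperin, turned on 1 array. It was 8.30, 7.45, 8.28, 9.08 and 7.34 in tumour CD29hiCD24+ arrays of A to E, against 11.82, 5.87 and 6.09 in pools F to H. The tumours lay between the array of pool F and those of pools G and H. The difference was 0.16 ± 0.93 with that array (adjusted p = 0.912) and 2.11 ± 0.62 without it (adjusted p = 0.0126). A second Rsad2 probe set had the same order in the pools, 9.04, 3.13 and 3.78, against 5.32, 4.66, 5.45, 6.37 and 3.91 in the tumours. The third lay above the low band in 3 arrays only. Without the array of pool F the tumour-minus-normal difference of Rsad2 was also larger in CD29hiCD24+ than in Lin- cells by 3.11 ± 0.82 (adjusted p = 0.00795), against 1.16 ± 1.32 with it (adjusted p = 0.545). Irf7 passed without the array in tumour against normal CD29hiCD24+ cells (1.63, adjusted p = 0.0486), while Oasl2 (3.24, adjusted p = 0.0152), Usp18 (2.73, adjusted p = 0.0475) and Ifit2 (-1.78, adjusted p = 0.0189) passed as before. Leukocyte genes averaged 4.02 to 5.31 in tumour CD29hiCD24+ arrays, against 7.56, 3.52 and 3.53 in pools F to H. Their part in the Rsad2 result was not tested beyond leaving the array out.

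Mx1, which encodes a dynamin-like antiviral GTPase in strains with an intact gene and is annotated as a transcribed pseudogene in C57BL/6J, had 5.87, 3.85, 3.76, 5.21 and 3.16 in tumour CD29hiCD24+ arrays, against 4.12, 3.44 and 3.03 in the pools. Its tumour-minus-normal difference of 0.84 ± 0.50 in these cells did not pass (adjusted p = 0.197), nor did those of 0.69 in CD29+CD24+ and 0.42 in Lin- cells. Without tumour E it passed in CD29hiCD24+ cells, at 1.14 (adjusted p = 0.0433).

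Within tumours, 3 genes of the set were higher in CD29hiCD24+ than in CD29+CD24+ cells of the same tumour, namely Oasl2, Ifit1 and Ifit2, none was lower, and 6 did not pass. In this paired comparison 15.5% of all genes passed, 7.76% higher and 7.71% lower. Oasl2 was higher by 0.91, 0.52, 1.01, 2.01 and 1.04 in tumours A to E (mean 1.10 ± 0.27, adjusted p = 0.0227). Ifit1 was higher by 0.86, 1.41, 0.96, 2.81 and 0.97 (mean 1.41 ± 0.39, adjusted p = 0.0368). Tumour D gave the widest gap for both genes. Ifit2 was higher by 2.28, 1.10, 0.16, 0.22 and 0.68 (mean 0.89 ± 0.25, adjusted p = 0.0401), with tumour A far ahead of C and D.

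The paired difference was above 0 in 5 of 5 tumours for 7 of the 8 genes other than Ifit3 and in 4 of 5 for Mx1. Ifit3 is left out of this count because both gates lay in the low band in tumours B, C and E. All 5 differences were above 0 for 13.9% of all genes. The median difference of the 9 genes was 0.84, against 0.00 over all genes. Irf7 (0.78 ± 0.25, adjusted p = 0.059), Isg15/Gm9706 (0.65 ± 0.20, adjusted p = 0.0551) and Rsad2 (0.84 ± 0.29, adjusted p = 0.0809) missed the threshold, and Usp18 (1.25 ± 0.47, adjusted p = 0.102) missed it with 3.24 in tumour D against 0.43 to 1.43 in the others. The calls depended on every tumour. The count was 0 without tumour A or E and 1 without B, C or D, and all 3 calls were lost without the pairing (adjusted p from 0.304 to 0.478). With no filter Ifit1 (adjusted p = 0.0509) and Ifit2 (adjusted p = 0.0547) lost their calls. With the leukocyte mean as a covariate all 3 did (adjusted p from 0.092 to 0.134), at differences of 0.92 for Oasl2, 1.19 for Ifit1 and 0.94 for Ifit2. Leukocyte genes averaged 4.02 to 5.31 in tumour CD29hiCD24+ arrays, against 3.0 to 4.59 in tumour CD29+CD24+ arrays, 0 of the 13 passed the paired limma test (3 had an unadjusted p under 0.05), and their part in the result was not tested otherwise.

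**Figure D3:**
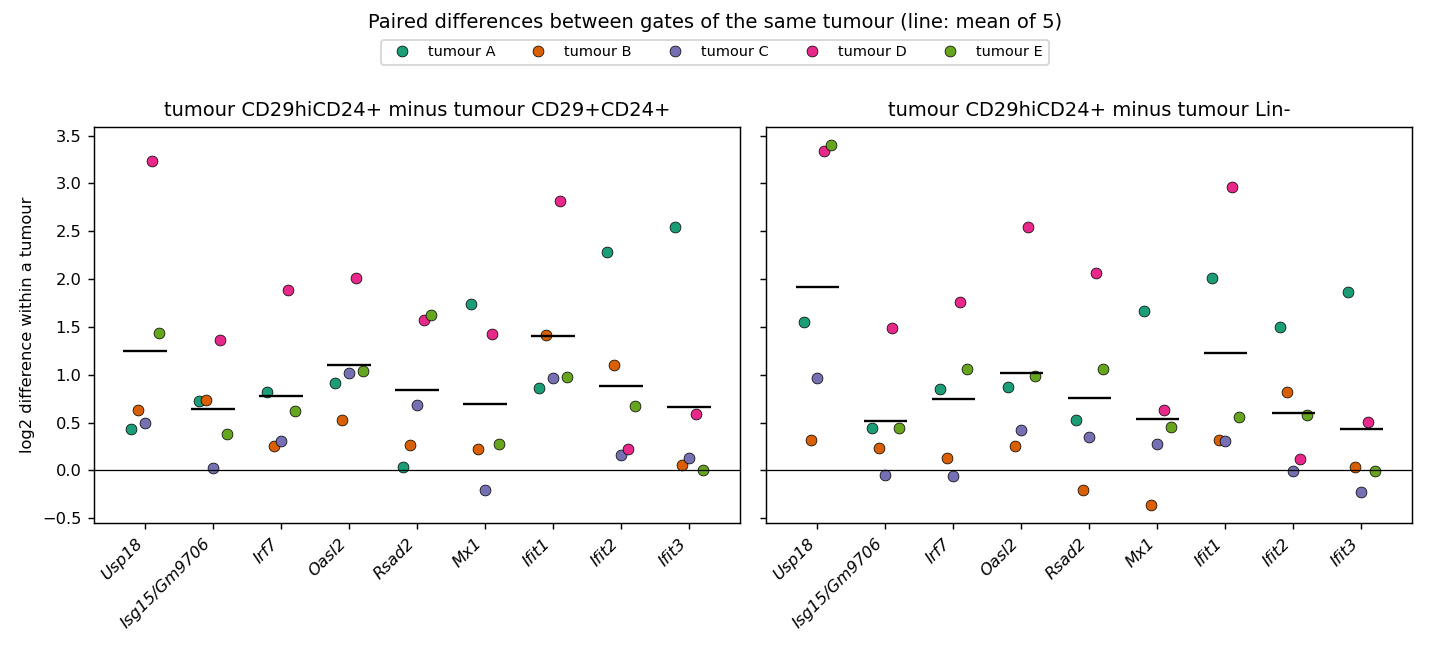
Log2 difference between gates of the same tumour (vertical axis) for the 9 genes, CD29hiCD24+ minus CD29+CD24+ on the left and minus Lin- on the right. Each point is 1 of 5 tumours and each line the mean of the 5. On the left only Mx1 in tumour C lies below 0, and tumour D has the widest Usp18 gap, at 3.24.

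Against Lin- cells of the same tumour, Usp18 and Oasl2 were higher in CD29hiCD24+ cells and the other 7 genes did not pass, where 19% of all genes passed, 9.28% higher and 9.68% lower. Usp18 was higher by 1.55, 0.31, 0.96, 3.34 and 3.41 in tumours A to E (mean 1.91 ± 0.47, 3.77-fold, adjusted p = 0.019). Oasl2 was higher by 0.87, 0.25, 0.43, 2.54 and 0.98 (mean 1.01 ± 0.27, adjusted p = 0.0261). Both differences were above 0 in 5 of 5 tumours, as they were for 12.9% of all genes, and the median of the 9 genes was 0.75, against -0.00 over all genes. The Usp18 call was lost without tumour E (1.54, adjusted p = 0.0859), and the Oasl2 call without tumour A (1.05, adjusted p = 0.0694) or E (1.02, adjusted p = 0.0891). Neither passed without the pairing (adjusted p = 0.133 for Usp18 and 0.476 for Oasl2). Tumour CD29+CD24+ and Lin- cells did not differ in any of the 9 genes by limma, 0 of them having an unadjusted p under 0.05, and 0.0371% of all genes passed.

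In normal glands, 4 genes were higher in CD29hiCD24+ than in CD29+CD24+ cells, Ifit2, Ifit1, Irf7 and Isg15/Gm9706, while Usp18 was lower and 4 did not pass. Of all genes 46.6% passed, 21.3% higher and 25.3% lower. Ifit2 was 7.81, 5.93 and 6.02 in CD29hiCD24+ cells of pools F to H, against 3.43, 2.97 and 3.17 in CD29+CD24+ cells, a difference of 3.40 ± 0.60 (adjusted p = 8.31e-05) that passed in all 18 alternatives. Usp18 was 6.48, 5.67 and 5.0 in CD29hiCD24+ cells, against 8.87, 9.13 and 8.72 in CD29+CD24+ cells, a difference of -3.19 ± 0.99 (9.12-fold lower, adjusted p = 0.0116). Neither gene overlapped between the gates, and nor did Ifit1, Irf7, Isg15/Gm9706 or Ifit3, so this was not particular to them. The share of all genes with that pattern is not given here. Endothelial genes averaged 7.25 to 9.94 in normal CD29hiCD24+ arrays, against 3.77 to 3.98 in normal CD29+CD24+ arrays, and their part in these differences was not tested.

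The other 3 calls rested on the array of pool F. Ifit1 was 8.49, 2.87 and 4.30 in CD29hiCD24+ cells of pools F to H, against 2.10, 2.21 and 2.0 in CD29+CD24+ cells. Its difference was 3.12 ± 1.26 with all arrays (adjusted p = 0.0483) and 1.48 without the CD29hiCD24+ array of pool F (adjusted p = 0.367). Likewise Irf7 had 1.60 ± 0.61 (adjusted p = 0.0357) against 1.25 without it (adjusted p = 0.156), and Isg15/Gm9706 had 1.44 ± 0.54 (adjusted p = 0.034) against 0.96 without it (adjusted p = 0.203). All 3 were also lost without tumour B (adjusted p from 0.0536 to 0.0704), without pool H (0.052 to 0.15) and with the leukocyte mean as a covariate (0.106 to 0.176). Ifit1 further lost its call without tumour C (adjusted p = 0.066) or D (adjusted p = 0.0565), with no filter (0.0645), with no variance trend (0.0514), with every kept probe set (0.0525) and in the normal arrays alone (0.0769), and passed in 7 of 18 alternatives, Isg15/Gm9706 without pool G (adjusted p = 0.0636), and Usp18 without pool G (-3.05, adjusted p = 0.0726) or H (-2.92, adjusted p = 0.0865). For the actin control probe sets, a wide gap between the 3′ and the 5′ end points to shortened RNA. That gap averaged 2.53 ± 0.35 in normal CD29hiCD24+ and 1.61 ± 0.21 in normal CD29+CD24+ arrays (SD, n = 3 each). The tumour means were 2.03 ± 0.30 and 2.06 ± 0.36 (SD, n = 5 each), lower than normal in CD29hiCD24+ and higher in CD29+CD24+ arrays. In Lin- arrays the means were 2.09 in tumours and 2.13 in pools. The part of this gap in the normal gate, tumour-minus-normal and gate-by-tissue differences was not tested.

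Against normal Lin- cells, Ifit2 was higher in normal CD29hiCD24+ cells by 1.99 ± 0.60 (adjusted p = 0.011) and Usp18 lower by 2.95 on the log2 scale (-2.95 ± 0.99, adjusted p = 0.0219), while 40.2% of all genes passed, 17% higher and 23.2% lower. The other 7 genes did not pass. Ifit2 lost the call without the array of pool F (1.38, adjusted p = 0.0904) or without pool H (1.91, adjusted p = 0.062). Usp18 lost it without pool F (-3.26, adjusted p = 0.0742), G (-3.00, adjusted p = 0.0865) or H (-2.60, adjusted p = 0.146). Between normal CD29+CD24+ and Lin- cells none of the 9 genes passed in limma, where 4.19% of all genes passed. The median difference of the 9 was -0.93, against -0.01 over all genes. One gene, Ifit2, had an unadjusted p under 0.05, with a difference of -1.40 ± 0.60 (adjusted p = 0.314).

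Ifit2 was the other gene whose gate difference depended on tissue. Its tumour-minus-normal difference was smaller in CD29hiCD24+ than in CD29+CD24+ cells by 2.51 on the log2 scale (-2.51 ± 0.76, 95% interval -4.09 to -0.94, adjusted p = 0.011). It passed in 16 of 17 alternatives and missed without the CD29hiCD24+ array of pool F (-1.90, adjusted p = 0.0511). The same test against Lin- cells gave -1.39 ± 0.76 (adjusted p = 0.163). In tumours the CD29hiCD24+ level of Ifit2 thus lay 0.89 above the CD29+CD24+ level, against 3.40 in normal glands. The CD29+CD24+ arrays lay close to the low band, at 2.88 to 3.66 in tumours and 2.97 to 3.43 in pools. The sizes of these gaps are therefore not well measured.

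Tumours A and E held the ends of the order in most genes and gates. Tumour A was the highest of the 5 for 8 of 9 genes in CD29hiCD24+, 8 in CD29+CD24+ and 6 in Lin- cells, against 31.8%, 28.8% and 13.5% of all genes. Tumour E was the lowest for 7, 8 and 8 genes in the same populations, against 26.5%, 12.5% and 14.7% of all genes. The mean over the 9 genes in CD29hiCD24+ cells was 7.88, 6.32, 5.95, 6.90 and 5.35 in tumours A to E. These counts include Ifit3, which lay mostly in the low band and was tested because of 6 arrays. Among these were the CD29hiCD24+ and Lin- arrays of tumour A and of pool F, so its place at the top there was not independent of that filter. It is counted for tumour A in both populations and for tumour E in CD29hiCD24+ cells, where its 2.71 lay in the low band. Tumour A carried the lowest leukocyte mean of the 5 in CD29hiCD24+ cells, 4.02, against 4.16 to 5.31 in the others. Tumour E carried the lowest in CD29+CD24+ cells, 3.0, against 3.49 to 4.59 in the others, and in Lin- cells, 3.18, against 4.07 to 6.56 in the others. Among pools, F was the highest for 9 of 9 genes in CD29hiCD24+ and for 9 of 9 in Lin- cells, against 29.8% and 27.5% of all genes, but for only 2 of 9 in CD29+CD24+ cells. Its leukocyte mean was 7.56 in CD29hiCD24+, 5.96 in Lin- and 3.51 in CD29+CD24+ cells, and its part in these orders was not tested.

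**Figure D4:**
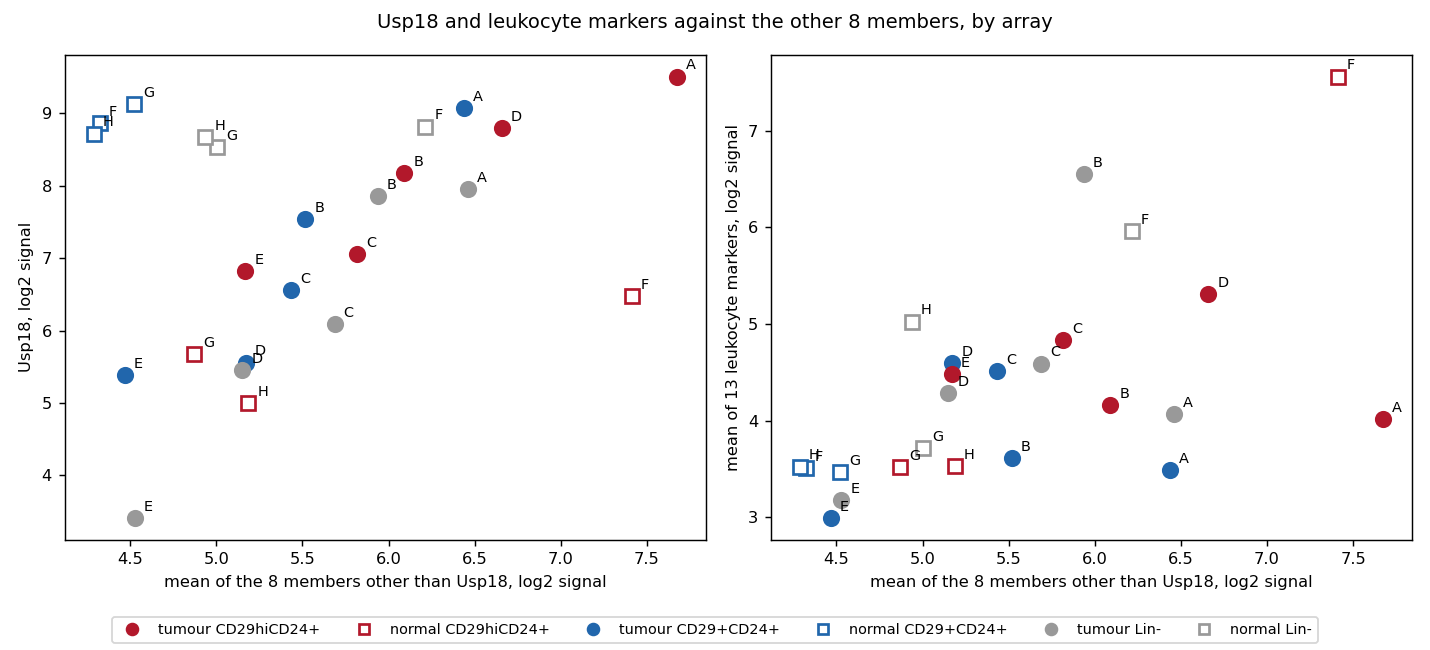
Usp18 (left, log2 signal) and the mean of 13 leukocyte genes (right, log2 signal) against the mean of the other 8 genes (horizontal axes), 1 point per array, filled for tumours and open for normal pools. The 6 normal CD29+CD24+ and Lin- arrays sit near the top of the Usp18 panel, between 8.53 and 9.13. Tumour A and pool F have like horizontal positions in CD29hiCD24+ cells but leukocyte means of 4.02 and 7.56.

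Across the 24 arrays, which share tumours and pools and are not independent, Isg15/Gm9706 and Ifit1 followed the mean of the other 8 genes most closely (Pearson r = 0.898 and 0.883, as a description). Usp18 did so least (r = 0.314), and Ifit2 was next (r = 0.410). With the 6 group means removed, so that only differences among tumours and among pools remain, Usp18 had r = 0.794 and Ifit2 had r = 0.776. Outside the set, Rtp4 (r = 0.868), Gbp6 (r = 0.857), Gbp3 (r = 0.844), Cmpk2 (r = 0.836) and Samd9l (r = 0.826) had the patterns most like the mean of the 9 genes. With group means removed these were Oas1a (r = 0.940), Ifi27l2a (r = 0.927), Ifih1 (r = 0.919), Phf11d (r = 0.907) and Gbp6 (r = 0.896).

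The rest of the pathway was read through lists of its parts. Upstream, 2 of 18 interferon genes were measured and neither passed in any comparison. Of 6 receptor genes, 4 were lower in tumour than in normal CD29+CD24+ cells and 4 were lower in Lin- cells, where 27.1% and 26.6% of all genes were lower. Ifnlr1, a chain of the interferon lambda receptor, averaged 6.66 ± 0.32 in tumour CD29+CD24+ and 8.95 ± 0.06 in normal CD29+CD24+ cells (SD, n = 5 and 3), a difference of -2.28 ± 0.26 (adjusted p = 4.65e-07). Its means in CD29hiCD24+ cells were 6.15 ± 0.39 in tumours and 6.39 ± 0.30 in pools, so its tumour-minus-normal difference was larger there by 2.05 ± 0.37 (adjusted p = 0.000194). Like Usp18, Ifnlr1 was lower in normal CD29hiCD24+ than in normal CD29+CD24+ cells (-2.56 ± 0.29, adjusted p = 4.91e-07). Ifnar2, a chain of the type I receptor, was lower in tumour than in normal Lin- cells (-1.41 ± 0.39, adjusted p = 0.00644). In tumour against normal CD29hiCD24+ cells 0 of the 6 receptor genes passed.

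Among 5 signal transducers, the receptor kinase Tyk2 was higher in tumour than in normal CD29hiCD24+ cells (1.13 ± 0.30, adjusted p = 0.00441) and lower in CD29+CD24+ cells (-0.90 ± 0.30, adjusted p = 0.0177). The difference between these differences was 2.03 ± 0.42 (adjusted p = 0.000604). Jak1 went the other way, lower in tumour CD29hiCD24+ cells (-0.62 ± 0.23, adjusted p = 0.0398) and higher in tumour CD29+CD24+ cells (0.79 ± 0.23, adjusted p = 0.00824). Jak2 was lower in both, by -0.53 ± 0.19 (adjusted p = 0.0357) and -1.25 ± 0.19 (adjusted p = 2.17e-05).

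Of 43 further interferon-stimulated effectors, 5 were higher and 3 lower in tumour than in normal CD29hiCD24+ cells, 3 higher and 7 lower in CD29+CD24+ cells, and 2 higher and 7 lower in Lin- cells. Of all genes 38.6%, 43.5% and 40.6% passed in these comparisons. The median differences of the 43 effectors were 0.00, -0.19 and -0.49, against -0.01, -0.01 and -0.08 over all genes. Ifi27l2a averaged 10.94 ± 1.3 in tumour CD29hiCD24+ and 6.10 ± 2.20 in normal CD29hiCD24+ cells (SD, n = 5 and 3), a difference of 4.84 ± 0.85 (adjusted p = 0.000116). In CD29+CD24+ cells its difference was 6.50 ± 0.85 (adjusted p = 2.29e-06). Within tumours, 5 of the 43 were higher and 2 lower in CD29hiCD24+ than in CD29+CD24+ cells. Of all genes 15.5% passed there, 7.76% higher and 7.71% lower. Among those higher were Lgals9 at 2.48 ± 0.51 (adjusted p = 0.0116), Samd9l at 1.54 ± 0.34 (adjusted p = 0.0153) and Oas1a at 1.18 ± 0.35 (adjusted p = 0.0473). Against tumour Lin- cells 9 were higher and 2 lower, where 19% of all genes passed, 9.28% higher and 9.68% lower.

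Another list held 22 measured genes named as interferon-gamma type targets, among them Gbp3 and Gbp6 above. Which interferon acted on them was not tested. Of the 22, 4 were higher and 0 lower in tumour CD29hiCD24+ than in tumour CD29+CD24+ cells. Of all genes 7.76% were higher and 7.71% lower there, and the median of the 22 was 0.69, against 0.00 over all genes. Psmb9 and Psmb8, subunits of the immunoproteasome, were higher by 1.76 ± 0.39 (adjusted p = 0.0147) and 1.32 ± 0.35 (adjusted p = 0.0307), and the GTPase gene Igtp by 1.14 ± 0.28 (adjusted p = 0.0213). Ifngr1, a chain of the interferon gamma receptor, was higher by 1.3 ± 0.31 in the same comparison (adjusted p = 0.0196). Psmb9, unlike Usp18, did not pass as higher in tumour than in normal CD29hiCD24+ cells. Its tumour-minus-normal difference was larger in CD29hiCD24+ than in CD29+CD24+ cells by 5.24 ± 1.36 (adjusted p = 0.00394). The chemokine gene Cxcl10 showed the opposite, with -4.12 ± 0.92 (adjusted p = 0.00119), and averaged 8.94 ± 0.65 in tumour CD29+CD24+ and 4.44 ± 0.49 in normal CD29+CD24+ cells (SD, n = 5 and 3). Ido1, a tryptophan-degrading enzyme gene, was at 14.24 ± 0.17 in normal CD29+CD24+ cells, against which tumour CD29+CD24+ cells had 6.95 ± 3.5 (difference -7.29 ± 1.55, adjusted p = 0.000605).

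Among 19 sensors and adaptors, 3 were higher and 2 lower in tumour CD29hiCD24+ than in tumour CD29+CD24+ cells, where 15.5% of all genes passed. Ddx58, the gene of the RNA sensor RIG-I, was higher by 1.12 ± 0.29 (adjusted p = 0.0273) and Sting1, the adaptor of DNA sensing, by 1.06 ± 0.28 (adjusted p = 0.03), while the kinase gene Tbk1 was lower by 0.51 on the log2 scale (-0.51 ± 0.10, adjusted p = 0.00864). Tlr4, the lipopolysaccharide receptor, was lower in tumour than in normal cells of all 3 populations, by -2.52 ± 0.60 in CD29hiCD24+ (adjusted p = 0.00231), -4.94 ± 0.60 in CD29+CD24+ (adjusted p = 1.02e-06) and -4.77 ± 0.60 in Lin- cells (adjusted p = 2.13e-06). None of the 3 measured genes of ISG15 conjugation, which share the ISG15 modification with Usp18, passed in any comparison. Of 7 negative regulators, Ptpn2 was lower in tumour than in normal CD29hiCD24+ cells (-0.88 ± 0.12, adjusted p = 8e-06) and so was Ptpn11 (-0.81 ± 0.12, adjusted p = 2.71e-05).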

How the data were processed

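RNA of 10000 sorted cells per sample was labelled in a two-cycle protocol and hybridised to Affymetrix arrays, per the labels' protocols. The deposited values are log2 signals per probe set. The submitters' processing notes name RMA, GCRMA and Partek. Their version, role and order are not stated in any source at hand. The scale was read from the values, 0.489 to 16.06, with array medians of 3.26 to 3.41. Precision is limited by how many arrays there are.

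The annotation named 1 gene for 34945 of the 45101 probe sets, several for 932 and none for 9160, besides 64 controls. Named probe sets with values over 2.83, the 40th percentile, in at least 3 arrays were kept (24279). Each gene was read from its brightest kept probe set, which left 13486 genes of 18194. The Isg15/Gm9706 probe set, with 2 names, was kept as its own gene.

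limma 3.58.1 in R 4.3.3 fitted 6 group means over 24 arrays (eBayes with a variance trend). Gate differences within tumours were fitted on the 15 tumour arrays with the tumour letter as a block. The titles pair the arrays by letter, with 2 of pool H assigned by elimination. With group means removed, the median correlation was 0.578 for the 15 same-tumour pairs and -0.167 for the 60 other tumour pairs, and it was 0.142 for the 9 same-pool pairs and -0.071 for the 18 other pool pairs. Benjamini-Hochberg adjusted p under 0.05 over all genes counted as passing. Values after ± are standard errors of a difference, or SD where written. Tumours are separate lesions and pools separate isolations. The fit of 6 group means takes 1 spread per gene from all 24 arrays as if independent, though arrays of the same tumour correlate. Standard errors of normal gate differences therefore rest on tumour arrays too. The paired fit measures the spread of gate differences within tumours. The fits were tested on simulated data.

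The genes, lists, tests and alternatives were chosen with earlier results of these data known. Pathway genes named are those of each list with the largest differences among those that passed without overlap of the groups (within tumours, with 1 sign in all 5), up to 3 a list and comparison. The genes most alike are the 5 with the highest Pearson r to the mean of the 9 genes. Alternatives were no filter, quantile normalisation, the mean over probe sets, no variance trend, a description-number block, a leukocyte covariate, each tumour or pool left out, other blocks, only the groups compared and leaving out 1 array; using every kept probe set was added after seeing the data.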

Additional observations from a re-analysis of the deposited data

Results flagged for a closer look

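Results stand out here in 4 cases. Ifit3 in tumour CD29hiCD24+ cells was 5.19 in tumour A, far from 2.71 to 3.19 in the other 4 tumours, by Dixon's criterion. Of those 4 values 3 lay in the low band, whose floor narrows their spread. Ifit3 was tested because of 6 arrays above that band, and this array was 1 of them. It was the 1 such value among 27 groups of 5 tumour arrays, where chance alone gives about 1 in 20. A single flag is near that rate and is not read as a result. The tumour-minus-normal difference of Usp18 was larger in CD29hiCD24+ than in CD29+CD24+ cells by 4.43 and than in Lin- cells by 4.87, and that of Ifit2 was smaller in CD29hiCD24+ than in CD29+CD24+ cells (-2.51). Each of these 3 is a tested difference between gates.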

How the results depend on the processing

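Each count is the number of the 9 genes that passed. Counts of tumour against normal cells with the description-number block are left out, since 1 tumour sets the level there. Tumour against normal CD29hiCD24+ cells gave 3, against 5 without the pool F array and 1 to 5 over the omissions of 1 tumour or pool. CD29+CD24+ cells gave 1, against 2 with quantile normalisation, 2 with the leukocyte covariate, 2 with only the 2 groups, 2 without the pool F array, 3 with the replicate block as a random effect and 1 to 3 over the omissions. Lin- cells gave 2, against 0 with only the 2 groups and 0 to 2 over the omissions. Within tumours, CD29hiCD24+ against CD29+CD24+ cells gave 3, against 1 with no filter, 0 with the leukocyte covariate, 0 with no replicate block and 0 to 1 over the omissions. Against Lin- cells the count was 2, with 4 under quantile normalisation, 0 with no replicate block and 0 to 2 over the omissions. Normal CD29hiCD24+ against CD29+CD24+ cells gave 5, against 2 with the leukocyte covariate, 2 without the pool F array and 1 to 5 over the omissions, and against Lin- cells 2, with 0 to 2. The difference of gates between tissues gave 2 for CD29+CD24+, with 1 without the pool F array, and 1 for Lin-, with 2 with the description-number block, 2 without the pool F array and 1 to 2 over the omissions. Over all alternatives, 133 counts moved by less than 1.5 times and 45 by more. Of 1602 single-gene values, 1493 kept their side of the threshold (73 of these with the sign turned, passing in neither), 80 lost a call, 29 gained one and 0 turned sign with a call. The causes were not tested. The replicate block, fixed or random, moved no other count by over 1.5 times. Signals in the low band, as for Ifit3, limit small differences.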

Other observations

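Other cell types that the gates could hold were read from marker lists. Fibroblast genes, 10 of 10 measured, averaged 5.43 to 6.69 in tumour CD29hiCD24+, 5.17 to 6.59 in tumour CD29+CD24+ and 6.65 to 10.82 in tumour Lin- arrays, against 5.67 to 7.16, 3.17 to 3.61 and 8.45 to 10.23 in the normal arrays of the same 3 populations. Dendritic cell genes, 4 of 9 measured, averaged 5.25 to 5.54 in tumour CD29hiCD24+ arrays, against 5.32 to 6.48 in normal CD29hiCD24+ arrays, with pool F the highest. Of the 13 leukocyte genes, 1 to 4 lay in the low band in each tumour CD29hiCD24+ array, against 0 in pool F, 6 in pool G and 7 in pool H.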
